A study of Mus musculus with 13 samples.

Results

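The genes described here encode 10 ligand-regulated nuclear receptors of mouse: the retinoic acid receptors Rara, Rarb and Rarg, the retinoid X receptor Rxra, the thyroid hormone receptors Thra and Thrb, the fatty-acid receptors Ppard and Pparg, and the oxysterol receptors Nr1h2 (LXR-beta) and Nr1h3 (LXR-alpha). They were chosen by name from 21887 protein-coding genes, and each was read as its gene body plus 20 kb on either side in mm10, called its window below. Chromatin immunoprecipitation followed by sequencing (ChIP-seq) had been used to map acetylation of histone H3 at lysine 27 (H3K27ac), a mark of active promoters and enhancers, and the co-repressors NCoR and SMRT. The series concerned NCoR, SMRT and c-MYC in the reprogramming of fibroblasts to pluripotency.

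H3K27ac was mapped in cultures of mouse embryonic fibroblasts (MEFs) at days 5, 9 and 13 after transduction with OCT4, SOX2, KLF4 and c-MYC (OSKM) together with HDAC3-YF, a deacetylase-null HDAC3 carrying Y298F, in OSKM cultures of the same days with a FLAG control, in embryonic stem cells (ESCs) and in untransduced MEFs. NCoR and SMRT were mapped in OSKM cultures at day 9 and in ESCs. MEFs and OSKM cultures were of strain C57BL/6J-OG2 and ESCs of C57BL/6J. ESCs grew in N2B27 medium with LIF, CHIR99021 and PD0325901. Transduced MEFs grew in a serum or a serum-replacement medium with LIF, and the labels do not say which was used for which library. An OSKM culture mixes cells at different stages, and all 6 OSKM H3K27ac libraries and both day 9 co-repressor libraries share the 4 factors. There were 13 libraries, 1 per group; 12 had a peak list and the ESC input was not analysed here. There is therefore no replicate error for any value below, no test between conditions was made, and each count of receptor genes is set beside the share of all protein-coding genes past the same difference.

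Receptors of this kind bind short DNA half-sites related to AGGTCA, mostly as heterodimers of a retinoic acid, thyroid hormone, fatty-acid or oxysterol receptor with a retinoid X receptor. Without ligand many of them hold NCoR or SMRT, which bring and activate the histone deacetylase HDAC3; ligand exchanges the co-repressors for co-activators that acetylate histones. Rara, Thra and Nr1h2 are known as broadly expressed, and Pparg as the receptor that drives fat cell differentiation from fibroblast-like precursors.

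Sequence before the start is shown for the 3 receptor genes whose listed starts were H3K27ac-marked in the fewest lists. They are 250 bases upstream of the transcription start from RefSeq (build GRCm38.p6, which has the mm10 coordinates), 5′ to 3′ on the gene's strand. Capitals mark receptor half-sites, searched on both strands as AGGTCA, as the variant AGTTCA, as the variant GGGTCA and as the variant GGTTCA.
Rarb, chr14:16575477-16575726, minus strand: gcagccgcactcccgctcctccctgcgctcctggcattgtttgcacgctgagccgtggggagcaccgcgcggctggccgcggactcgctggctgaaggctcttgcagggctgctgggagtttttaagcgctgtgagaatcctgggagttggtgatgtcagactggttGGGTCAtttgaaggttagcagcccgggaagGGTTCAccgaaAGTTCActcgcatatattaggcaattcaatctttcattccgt
Pparg, chr6:115360894-115361143, plus strand: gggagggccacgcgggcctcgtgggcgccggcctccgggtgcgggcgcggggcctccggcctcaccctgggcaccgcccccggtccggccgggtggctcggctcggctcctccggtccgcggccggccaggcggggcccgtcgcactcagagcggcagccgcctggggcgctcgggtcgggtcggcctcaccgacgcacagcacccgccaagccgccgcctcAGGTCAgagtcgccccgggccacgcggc
Nr1h3, chr2:91195117-91195366, minus strand: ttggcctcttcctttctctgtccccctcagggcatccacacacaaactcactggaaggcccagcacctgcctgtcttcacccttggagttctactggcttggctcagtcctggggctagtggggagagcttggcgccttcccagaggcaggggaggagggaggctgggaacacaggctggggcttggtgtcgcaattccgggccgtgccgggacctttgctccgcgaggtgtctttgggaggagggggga
The Rarb sequence holds 3 half-sites and 58.0% G and C. GGTTCA followed by AGTTCA forms a direct repeat with 5 bases between the half-sites, 53 to 37 bases before the start at chr14:16575513-16575529. A repeat of that spacing in the Rarb promoter is known as a retinoic acid response element bound by a retinoic acid receptor with a retinoid X receptor. Of the 18 listed starts of 9 receptor genes the Rarb start alone had such a repeat in its 250 upstream bases, and of all 32851 listed mouse starts 0.0883% did; Thra had no listed start. The Pparg sequence holds 1 half-site and 82.4% G and C, and the Nr1h3 sequence none of the half-sites and 63.2% G and C, where the median of all starts was 52.4%. Any half-site was present before 8 of the 18 receptor starts, those of Pparg, Rara, Rarb, Rarg, Rxra and Thrb, and before 38.6% of all starts. Repeats with spacers of 1, 2 and 4 bases were before none of the 18, and before 0.164%, 0.174% and 0.0670% of all starts. The E-box CACGTG lay before a start of Rara and one of Thrb, and before 6.02% of all starts.

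Every deposited interval was 200 bp wide, so the number of intervals in a window is the measure used. The H3K27ac lists held 14251 to 16944 intervals in OSKM cultures, 25499 in ESCs and 26591 in MEFs, and the read depth behind them is unknown. The share of intervals at the top score of 200 was 2.11% with HDAC3-YF and 1.67% with FLAG at day 13, and between 9.06% and 25.9% in the other H3K27ac lists. Windows of 10 pluripotency marker genes held 65 intervals in ESCs and 5 in MEFs, and those of 10 fibroblast marker genes held 4 in ESCs and 54 in MEFs, each of the 20 genes in the direction of its label. Windows of the receptor genes do not overlap one another, but 8 of the 10 hold part of another protein-coding gene, and only those of Rxra and Pparg hold none.

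All 10 receptor genes had H3K27ac intervals in some list, and they differed widely among themselves. Rara had the highest total over the 8 lists, 51 intervals, followed by Thra with 45, Ppard with 37, Rxra with 32, Rarg with 23, Nr1h3 with 22, Nr1h2 with 15, Thrb with 13, Pparg with 7 and Rarb with 6. The order does not follow window length: Rarb has the longest window at 691 kb and Nr1h2 the shortest at 44.4 kb. Neighbours in this order such as Rarg and Nr1h3 differed by 1 interval, and with 1 library a condition no spread is known against which to set them.

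**Figure D1:**
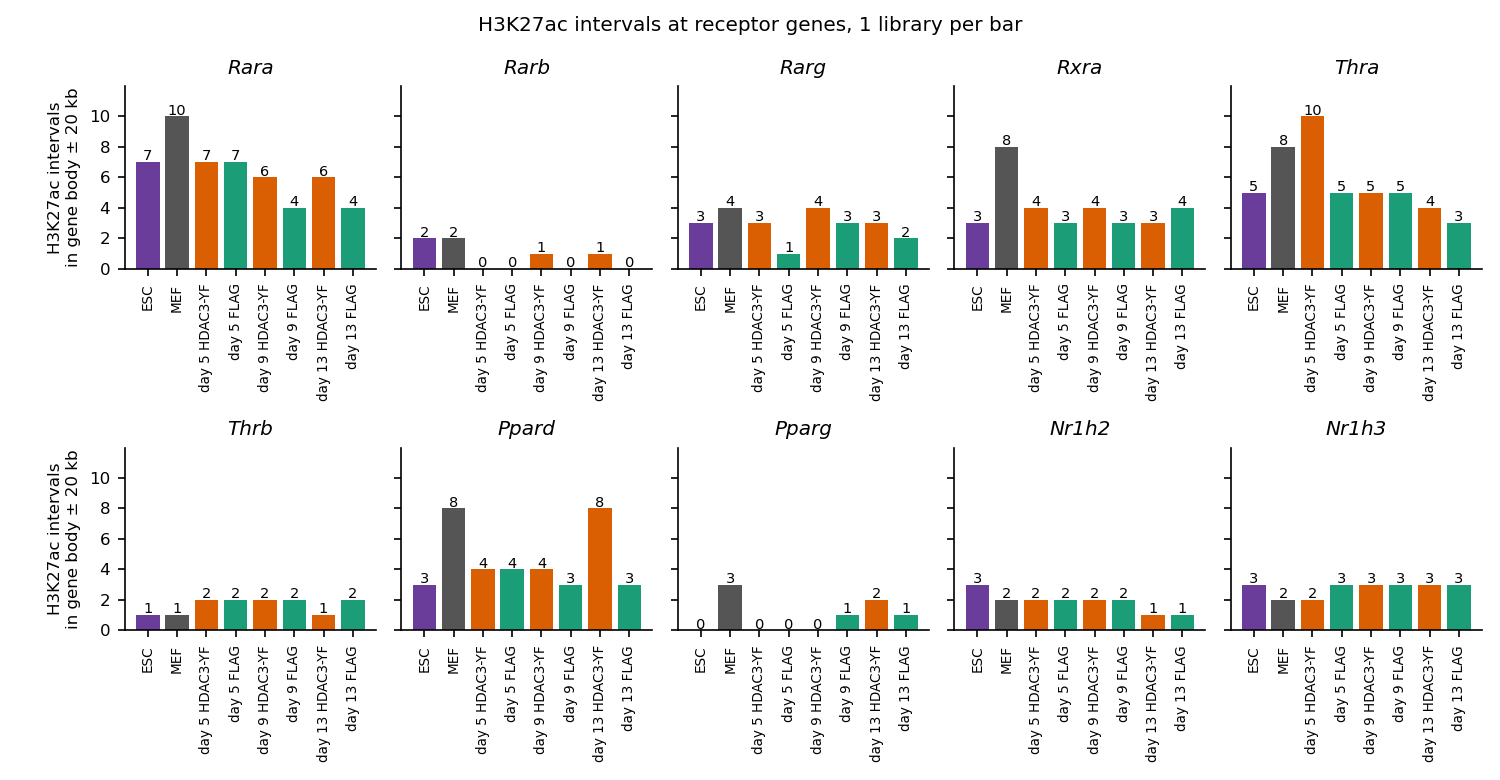
H3K27ac intervals (y axis, number) in the window of each receptor gene, 1 bar per library (x axis), purple for ESCs, grey for MEFs, orange for HDAC3-YF and green for FLAG; there are no error bars because each group is 1 library. Rara and Thra reach 10 intervals in single lists, while Rarb stays at 2 or fewer in every list.

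With HDAC3-YF the 10 genes together held more H3K27ac intervals than with FLAG on each day: 34 against 27 at day 5, 31 against 26 at day 9 and 32 against 23 at day 13. At day 5 Thra, Rarg and Rxra had more with HDAC3-YF and Nr1h3 fewer. At day 9 Rara, Rarb, Rarg, Rxra and Ppard had more and Pparg fewer, and at day 13 Rara, Rarb, Rarg, Thra, Ppard and Pparg had more and Rxra and Thrb fewer. Rarg alone had more on all 3 days, and Nr1h2 had equal counts on all 3. Among all protein-coding genes 14.2%, 10.7% and 15.5% had more with HDAC3-YF at days 5, 9 and 13, and 11.0%, 15.0% and 16.4% had fewer.

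Since these genes hold more intervals than most, with a median between 2.5 and 3.5 per OSKM list against 1 over all genes, genes with 3 or more intervals in either list of a day are the nearer comparison. Of 6 such receptor genes on each day, 3, 4 and 4 had more with HDAC3-YF at days 5, 9 and 13, where 37.8%, 26.4% and 33.1% of all such genes did. Fewer with HDAC3-YF were 1, 0 and 1 of the 6, against 25.9%, 37.7% and 40.3% of all such genes. At least 2 more were seen at 2, 1 and 2 receptor genes, against 2.62%, 1.58% and 2.67% of all genes, and at least 2 fewer at 0, 0 and 0, against 1.42%, 2.77% and 3.53%. Rara, Rarb, Rarg, Thra and Ppard, 5 of 10, had more on at least 2 days and fewer on none, against 5.16% of all genes, and 0 of 10 had the reverse, against 6.29%. With a 5 kb flank Rara differed by 0, 1 and 0 at days 5, 9 and 13, and Ppard by 0, 0 and 3. Neither then had more on at least 2 days. From the higher-scoring 50% of the lists, Ppard alone of these 5 genes kept the pattern. More on all 3 days was seen for 0.635% of all genes and fewer on all 3 for 1.44%. Shares for differences of at least 2 and for patterns over days were not counted among genes with 3 or more intervals. The median difference of HDAC3-YF minus FLAG over the 10 genes was 0, 0.5 and 1 interval at days 5, 9 and 13, and 0 over all genes on each day.

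**Figure D2:**
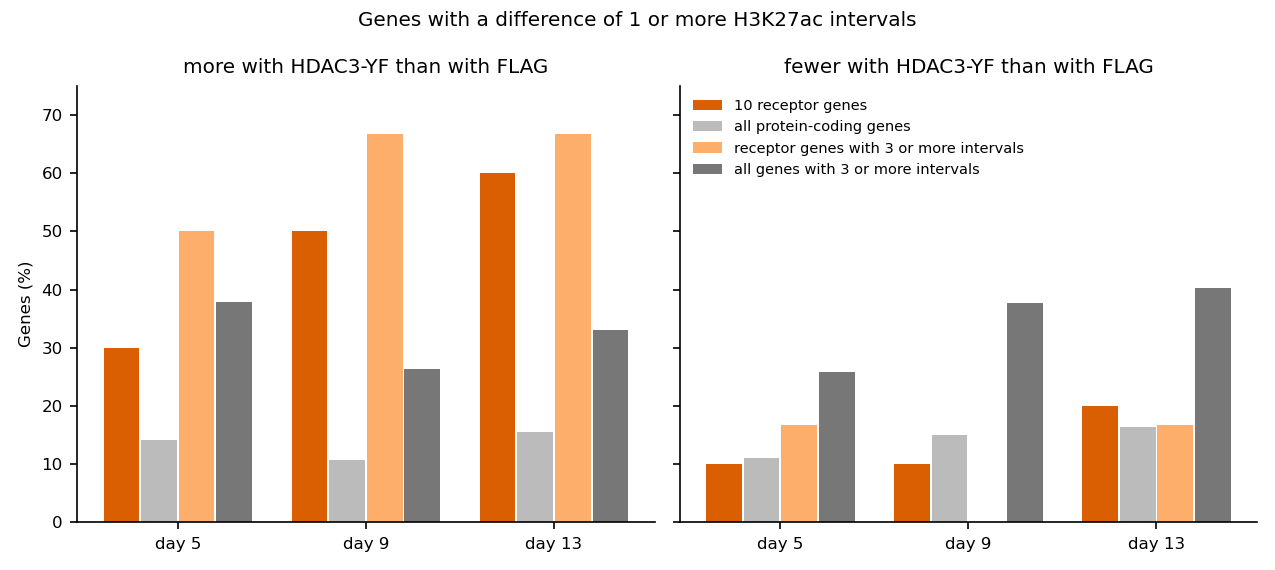
Share of genes (y axis, percent) with at least 1 more H3K27ac interval with HDAC3-YF than with FLAG (left) or at least 1 fewer (right), by day; orange bars are the receptor genes and grey bars all protein-coding genes, and the paler orange and darker grey bars keep genes with 3 or more intervals in either list. The orange bars exceed the grey ones on the left on each day, from 3 of 10 genes at day 5 to 6 of 10 at day 13.

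The excess lay among low-scoring intervals. From the higher-scoring 50% of each list the 10 genes held 10 intervals with HDAC3-YF and 11 with FLAG at day 5, 13 with HDAC3-YF and 13 with FLAG at day 9, and 12 with HDAC3-YF and 13 with FLAG at day 13. Genes with more with HDAC3-YF were then 1, 3 and 3 at days 5, 9 and 13, and genes with fewer 2, 3 and 3, where more was seen at 8.68%, 5.77% and 8.76% of all genes and fewer at 5.74%, 8.39% and 10.8%. With the same number of highest-scoring intervals from each list, 14251, the sums were 27 with HDAC3-YF and 24 with FLAG at day 5, 30 with HDAC3-YF and 22 with FLAG at day 9, and 32 with HDAC3-YF and 23 with FLAG at day 13. Fibroblast marker windows held 25 intervals with HDAC3-YF and 18 with FLAG at day 5, 11 with HDAC3-YF and 22 with FLAG at day 9, and 10 with HDAC3-YF and 15 with FLAG at day 13, and pluripotency marker windows held 4 with HDAC3-YF and 5 with FLAG, 10 with HDAC3-YF and 7 with FLAG, and 8 with HDAC3-YF and 5 with FLAG. The part of the cell makeup in the counts at receptor genes was not tested.

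By position, intervals with none of the other culture of that day within 1 kb between centres numbered 9 of 34 with HDAC3-YF and 2 of 27 with FLAG at day 5, 8 of 31 with HDAC3-YF and 4 of 26 with FLAG at day 9, and 13 of 32 with HDAC3-YF and 5 of 23 with FLAG at day 13. With HDAC3-YF these are 26.5%, 25.8% and 40.6% of the receptor-gene intervals at days 5, 9 and 13, against 24.4%, 17.8% and 24.9% of all intervals. With FLAG they are 7.41%, 15.4% and 21.7% of the receptor-gene intervals, against 18.0%, 23.8% and 30.6% of all intervals. Such intervals found in 1 culture had, at the median, 16.6% of their list below them in score (n = 41), and 3 of them stood in the upper 50%; over the whole lists 90.1% to 98.4% of such intervals stood in the lower 50% of their list, by day and culture. The 132 found in both cultures of a day had a median place of 51.2%, and 69 stood in the upper 50%. Of those seen with HDAC3-YF alone, 5, 4 and 6 at days 5, 9 and 13 (of 9, 8 and 13) lay within 1 kb of an ESC interval, against 24.0%, 39.5% and 45.7% of all HDAC3-YF-alone intervals, and 6, 5 and 6 within 1 kb of a MEF interval, against 29.0%, 36.9% and 35.4%. Of those seen with FLAG alone, 0, 0 and 0 (of 2, 4 and 5) lay near an ESC interval, against 33.4%, 26.1% and 28.3% of all FLAG-alone intervals, and 1, 2 and 3 near a MEF interval, against 45.1%, 47.6% and 49.3%. At day 13 the HDAC3-YF share near ESC intervals was at the level of all such intervals. The HDAC3-YF-alone intervals near ESC intervals lay at Rara, Rarb, Rarg, Thra and Ppard.

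**Figure D3:**
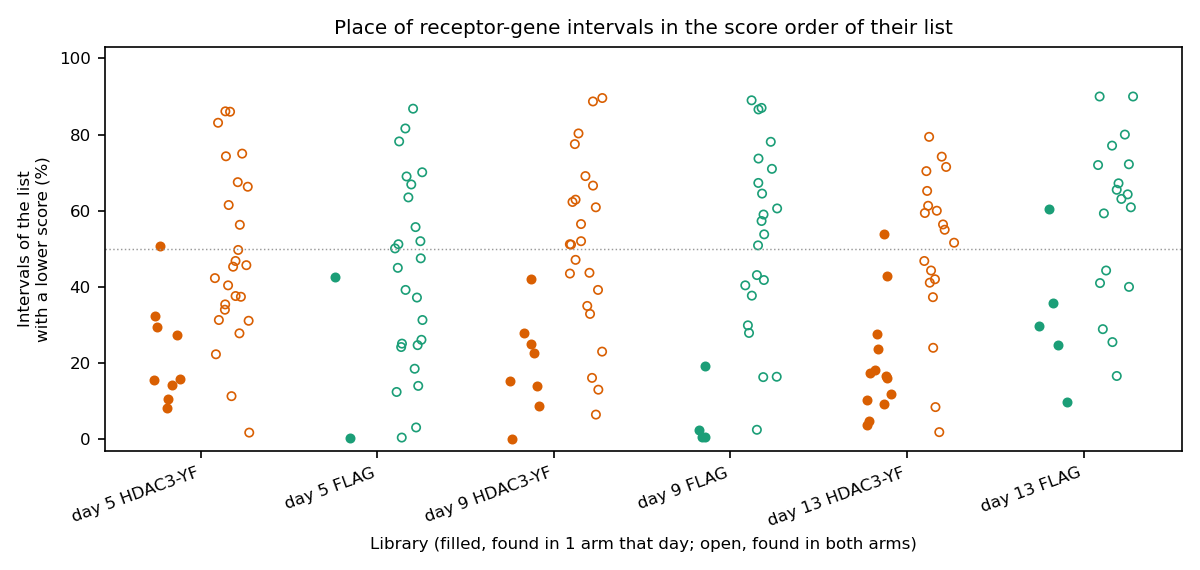
Place of every receptor-gene H3K27ac interval in the score order of its own list (y axis, percent of the list with a lower score) for the 6 OSKM libraries (x axis); filled points are intervals with none of the other culture of that day within 1 kb, open points those found in both. Filled points lie mostly below the dotted line at 50%, with a median of 16.6%, against 51.2% for the open points.

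Linking intervals of the 8 H3K27ac lists whose centres lie within 1 kb gave 67 acetylated elements in the 10 windows. Of these 14 were present in all 8 lists and 25 in 1 list. An element was present in at least 1 HDAC3-YF list and no FLAG list 12 times, and in at least 1 FLAG list and no HDAC3-YF list 5 times. OSKM lists alone, with neither ESCs nor MEFs, held 12. The 3-day series of HDAC3-YF-alone elements was 7, 8 and 12 at days 5, 9 and 13, and that of FLAG-alone elements 2, 4 and 5. Elements were linked in the receptor windows only, so none of these element counts has a share over all genes beside it. The shares of all intervals found in 1 culture are given above.

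**Figure D4:**
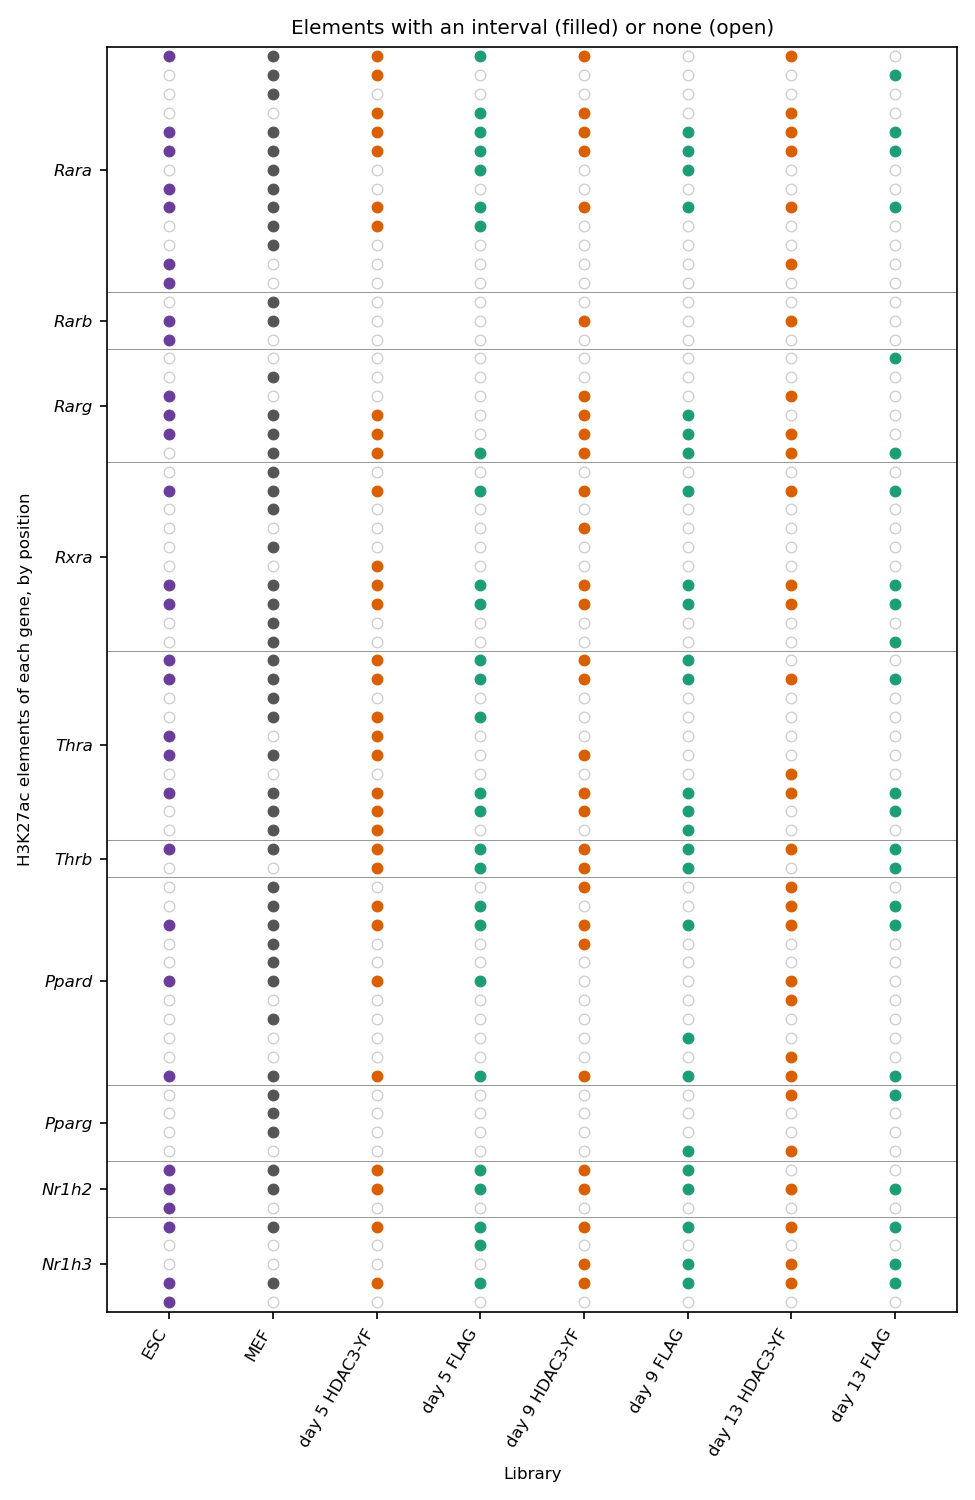
The 67 H3K27ac elements of the receptor genes (rows, in genome order within each gene) in the 8 H3K27ac lists (columns); filled circles mark an interval and open circles none. The 14 rows filled across all columns include the starts of Rara, Rxra, Thrb, Ppard and Nr1h2.

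Among the retinoic acid receptor genes, Rara (chr11:98927800-98974942) encodes the alpha receptor. Its window held 7 intervals in ESCs and 10 in MEFs, 7 with HDAC3-YF and 7 with FLAG at day 5, 6 with HDAC3-YF and 4 with FLAG at day 9, and 6 with HDAC3-YF and 4 with FLAG at day 13. Elements at its start (chr11:98936604-98938145), at chr11:98942093-98942873 and at chr11:98960004-98960890 were in all 8 lists. The element at chr11:98942093-98942873, 2481 bp or more from the nearest listed Rara start, stood high in score in each list. In each, 74.1% to 90.0% of the list was below it. Ties at the top score set the highest possible place at 75.6% in ESCs and 74.1% in MEFs. The upper annotated end of Gm46294, a neighbouring protein-coding gene at chr11:98937263-98942246, falls inside this element. Whether it belongs to Rara or Gm46294 was not tested. An element 4289 to 4550 bp before the start, chr11:98933046-98933506, was absent from ESCs and MEFs and present with HDAC3-YF on days 5, 9 and 13 and with FLAG at day 5. The Rara window also holds the start of Cdc6, a DNA replication licensing gene, where intervals were in ESCs, MEFs, all 3 HDAC3-YF lists and the day 5 FLAG list.

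Rarb (chr14:16430839-17082331), which encodes the beta receptor and is itself a known retinoic acid target, had 2 intervals in ESCs, 2 in MEFs, 0 with HDAC3-YF and 0 with FLAG at day 5, 1 with HDAC3-YF and 0 with FLAG at day 9, and 1 with HDAC3-YF and 0 with FLAG at day 13. The intervals at days 9 and 13 with HDAC3-YF lay on the start, 25 and 41 bp from it, as did 1 of the 2 in ESCs and in MEFs, 49 and 27 bp from it. The nearest FLAG interval to the Rarb start was 210068 bp away at day 9 and 210117 bp away at day 13. The direct repeat shown above, 17 bp long, was covered over 17 bp by the day 9 and day 13 HDAC3-YF intervals, over 14 bp in ESCs and 17 bp in MEFs, and lay under no interval in the other 4 lists. Both HDAC3-YF intervals had low scores in their lists, with 27.8% of the day 9 list and 42.9% of the day 13 list below them. Of 10010 genes with start intervals in ESCs and MEFs, 0.300% shared the Rarb pattern of start intervals with HDAC3-YF at days 9 and 13 and none with FLAG on any day, and 0.390% had the converse pattern.

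Rarg (chr15:102234938-102257522), the gamma receptor gene, had 3 intervals in ESCs and 4 in MEFs, 3 with HDAC3-YF and 1 with FLAG at day 5, 4 with HDAC3-YF and 3 with FLAG at day 9, and 3 with HDAC3-YF and 2 with FLAG at day 13. The start at 102257522 was marked in MEFs and all 6 OSKM lists and not in ESCs. Counted over any listed start of a gene, this pattern was shared by 0.631% of genes. The nearest ESC interval to the other listed Rarg start was 1070 bp from it, just outside the 1 kb limit. An element inside the gene near its other listed start, chr15:102247060-102247905, was in ESCs, MEFs, all 3 HDAC3-YF lists and the day 9 FLAG list. Another, chr15:102235521-102235929, was in ESCs and in the day 9 and day 13 HDAC3-YF lists, with 58.7%, 14.0% and 53.8% of the list below it in score. At day 5 the HDAC3-YF interval of the element near the other start was 659 bp from it and the nearest FLAG interval 11208 bp. In the gene body alone the difference of HDAC3-YF minus FLAG at Rarg was 2, 0 and 2 at days 5, 9 and 13, and from the higher-scoring 50% of the lists 0, -1 and 1.

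Rxra (chr2:27676445-27763319), which encodes the shared heterodimer partner, had 3 intervals in ESCs and 8 in MEFs, 4 with HDAC3-YF and 3 with FLAG at day 5, 4 with HDAC3-YF and 3 with FLAG at day 9, and 3 with HDAC3-YF and 4 with FLAG at day 13. The elements at the start (chr2:27677269-27677912) and at chr2:27740063-27740473 and chr2:27745217-27745918 inside the gene were in all 8 lists and were the 3 found in ESCs. The other 5 MEF intervals were absent from ESCs, and 1 of them, chr2:27774497-27774818, had a counterpart in an OSKM list, day 13 FLAG. The intervals that set the differences between cultures at Rxra were single ones with 0.0328% to 29.7% of their list below them.

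**Figure D5:**
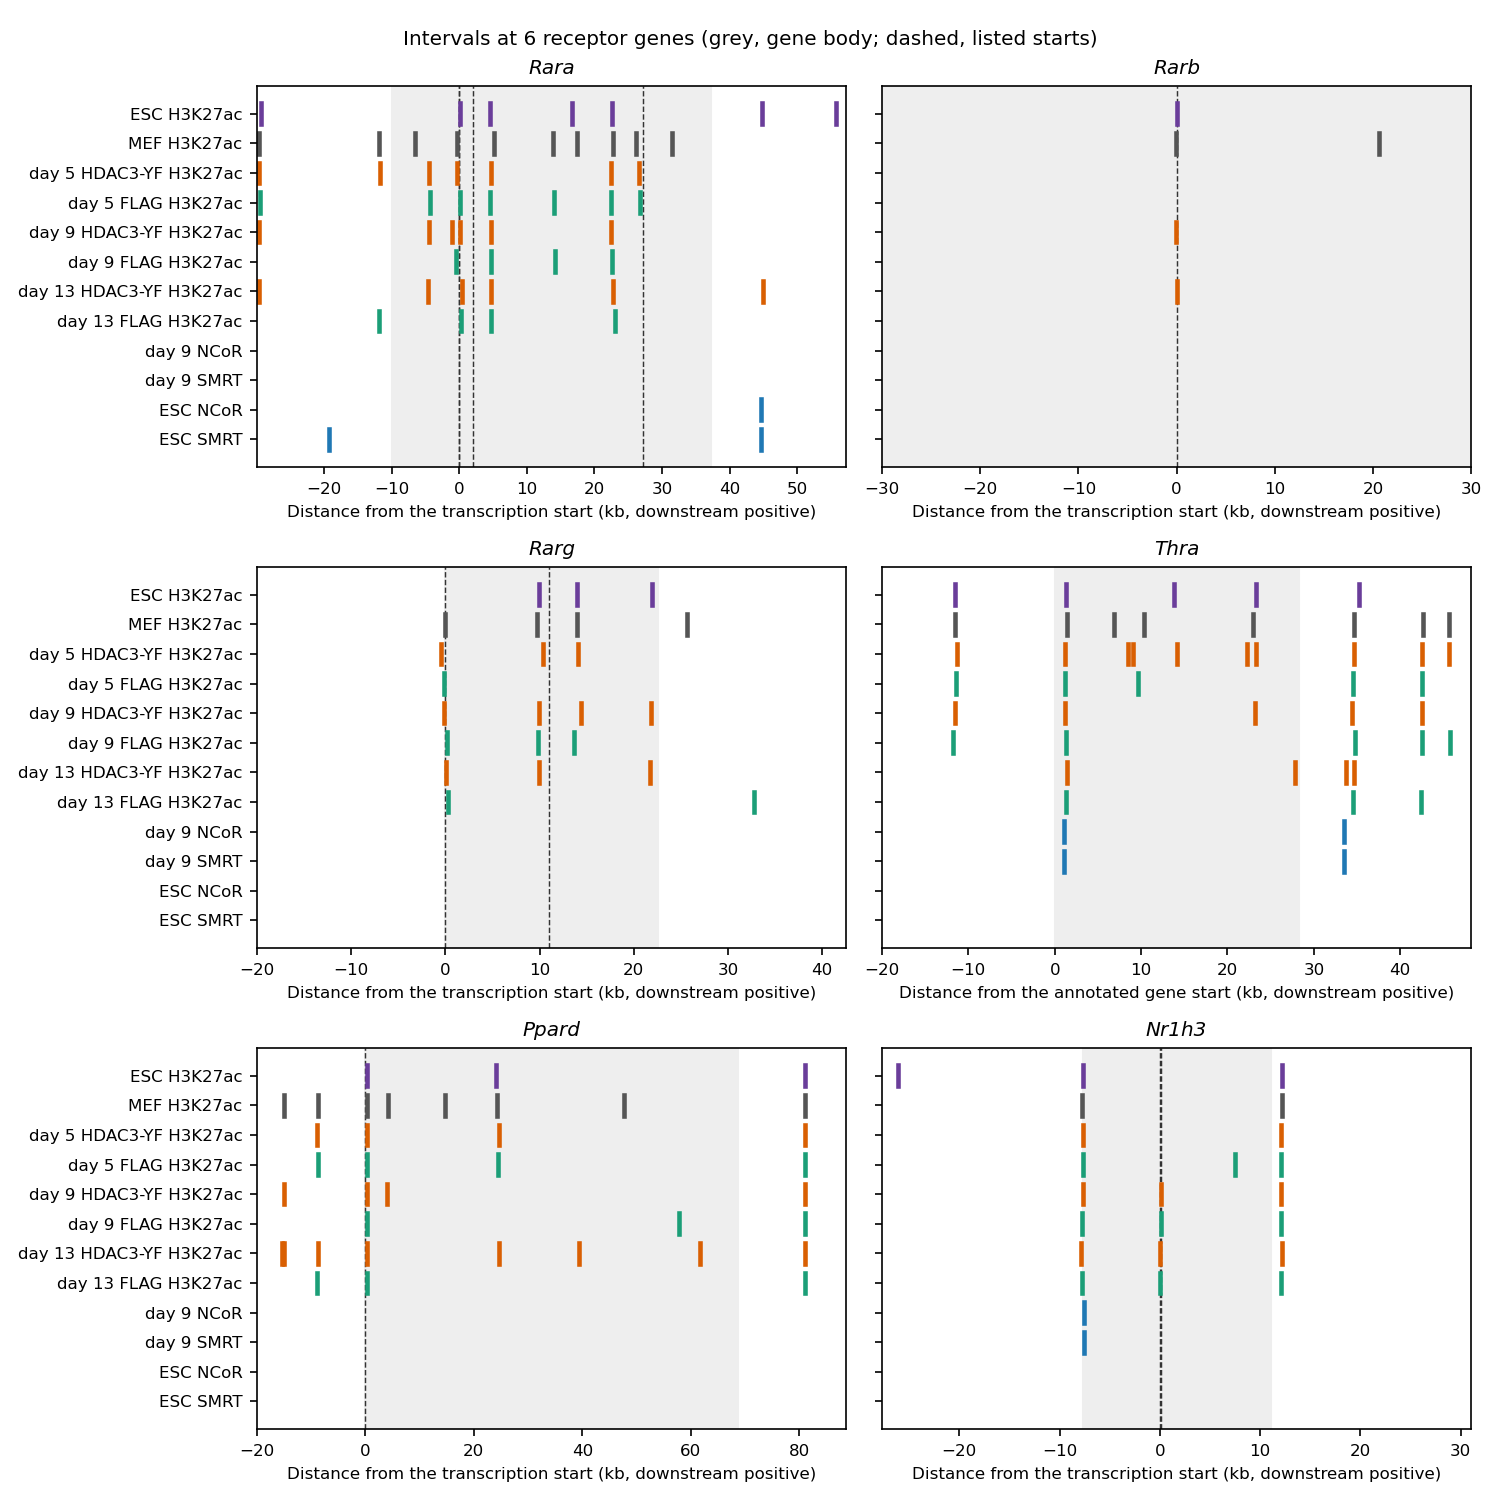
Positions of H3K27ac, NCoR and SMRT intervals in the 12 lists (rows) around 6 receptor genes, as distance in kb from a transcription start (x axis, downstream positive; for Thra from the lower annotated end); grey is the gene body, dashed lines are listed starts, and Rarb is shown for 30 kb on either side of its start. At Rarb the start tick is present in ESCs, MEFs and the day 9 and day 13 HDAC3-YF lists. At Nr1h3 the tick on the listed starts is present in the 4 day 9 and day 13 lists.

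Of the thyroid hormone receptor genes, Thra (chr11:98740776-98769006) had 5 intervals in ESCs and 8 in MEFs, 10 with HDAC3-YF and 5 with FLAG at day 5, 5 with HDAC3-YF and 5 with FLAG at day 9, and 4 with HDAC3-YF and 3 with FLAG at day 13. The day 5 difference of 5 was reached or passed by 0.0411% of all genes, 9 in all, without matching for the number of intervals. It came from 5 intervals with HDAC3-YF that had none with FLAG within 1 kb, with 8.31% to 32.3% of the list below them, and from the higher-scoring 50% of the lists the difference was -1. It was 3 with intervals within 1 kb merged, and 2 with an equal number of intervals from each list. An element 1199 to 1397 bp inside the lower end of the gene, chr11:98741876-98742273, was in all 8 lists. The window also holds the start of Nr1d1, which encodes the circadian repressor REV-ERB-alpha and whose 3′ end overlaps that of Thra; the element there, chr11:98774346-98776142, was in all 8 lists as well. Its interval at the Nr1d1 start had 86.1% of the list below it with HDAC3-YF and 81.6% with FLAG at day 5, 80.3% with HDAC3-YF and 78.1% with FLAG at day 9, and 8.43% with HDAC3-YF and 80.0% with FLAG at day 13. An element at chr11:98783091-98783473, beyond Nr1d1, was in MEFs and in every OSKM list except day 13 HDAC3-YF, and not in ESCs.

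Thrb (chr14:17659225-18040097), the beta receptor gene, had 1 interval in ESCs and 1 in MEFs, 2 with HDAC3-YF and 2 with FLAG at day 5, 2 with HDAC3-YF and 2 with FLAG at day 9, and 1 with HDAC3-YF and 2 with FLAG at day 13. Its start (chr14:17660677-17661084) was marked in all 8 lists, with centres 1 to 183 bp from the start. The additional interval was the same element in 5 of the 6 OSKM lists, chr14:17917515-17917901 within the gene, 63842 bp or more from a listed start, and it was absent from ESCs, MEFs and day 13 HDAC3-YF. Its place in the lists was low, between 3.08% and 46.8%.

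Of the fatty-acid receptor genes, Ppard (chr17:28232754-28301469), which encodes the broadly expressed PPAR-delta, had 3 intervals in ESCs and 8 in MEFs, 4 with HDAC3-YF and 4 with FLAG at day 5, 4 with HDAC3-YF and 3 with FLAG at day 9, and 8 with HDAC3-YF and 3 with FLAG at day 13. A difference of 5 or more at day 13 was seen at 0.0183% of all genes, 4 in all, without matching for the number of intervals. The difference at Ppard was 1 from the higher-scoring 50% of the lists, and 3 with a 5 kb flank, in the gene body alone or from intervals nearest to Ppard. The 5 day 13 HDAC3-YF intervals with none in FLAG within 1 kb had 3.72% to 23.6% of their list below them, and 3 of them lay near MEF intervals. They included a pair at chr17:28217175-28217874, an element also present in MEFs and with HDAC3-YF at day 9. The Ppard start (chr17:28232930-28233220) and the start of the neighbouring DNA repair gene Fance (chr17:28313671-28313970) were marked in all 8 lists.

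Pparg (chr6:115360879-115490404) had 0 intervals in ESCs and 3 in MEFs, 0 with HDAC3-YF and 0 with FLAG at day 5, 0 with HDAC3-YF and 1 with FLAG at day 9, and 2 with HDAC3-YF and 1 with FLAG at day 13. The start (chr6:115361267-115361614) was marked in MEFs and in both day 13 lists, with 58.8% of the list below it in MEFs, 41.1% with HDAC3-YF and 25.5% with FLAG. A start interval in MEFs and both day 13 lists and in none of ESCs, day 5 and day 9 was present at 0.119% of genes, 26 in all. The other OSKM intervals of Pparg formed 1 element past its end, chr6:115499765-115500094, with 4.89% of the list below it with HDAC3-YF at day 13 and 2.47% with FLAG at day 9. No protein-coding neighbour shares the Pparg window.

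Of the oxysterol receptor genes, Nr1h2 (chr7:44549616-44553968) had 3 intervals in ESCs and 2 in MEFs, 2 with HDAC3-YF and 2 with FLAG at day 5, 2 with HDAC3-YF and 2 with FLAG at day 9, and 1 with HDAC3-YF and 1 with FLAG at day 13. Its start (chr7:44553592-44554027) was marked in all 8 lists and stood high in each, with 64.3% to 88.7% of the list below it. The second element, chr7:44548318-44548776, lies at the start of Pold1, which encodes the catalytic subunit of DNA polymerase delta, and was in all lists but the 2 of day 13.

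Nr1h3 (chr2:91184061-91202829) had 3 intervals in ESCs and 2 in MEFs, 2 with HDAC3-YF and 3 with FLAG at day 5, and 3 with each culture at days 9 and 13. The element on its listed starts (chr2:91194864-91195212) was in all 4 day 9 and day 13 lists and absent from ESCs, MEFs and both day 5 lists. It had 16.1% of the list below it with HDAC3-YF and 41.8% with FLAG at day 9, and 24.0% with HDAC3-YF and 63.1% with FLAG at day 13. The same pattern, counted over listed starts or over either end of genes with none, was present at 3 of the 21887 genes, 0.0137%. This pattern and the start patterns of Rarb, Rarg and Pparg were chosen after their values were seen. The elements in all 8 lists lie at starts of neighbours, chr2:91182813-91183166 at Madd and chr2:91202655-91203062 at Acp2, a lysosomal acid phosphatase gene. The second also lies at the upper annotated end of Nr1h3, 7638 bp or more from its listed starts. That end is the 5′ end of this minus-strand gene. The annotated 5′ end of Nr1h3 was thus marked in all 8 lists, and the day 9 and day 13 pattern holds for its listed starts alone. Whether the second element belongs to Nr1h3 or Acp2 was not tested.

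Across the 10 genes, H3K27ac within 1 kb of a listed start was present in all 8 lists for Rara, Rxra, Thrb, Ppard and Nr1h2, 5 of 10, against 35.1% of all genes. Nr1h3 is not among the 5, though its annotated 5′ end, which is not a listed start, was marked in all 8 lists. By list, the number of genes with such a start interval was 6 in ESCs and 8 in MEFs, where 51.1% and 51.3% of all genes had one. With HDAC3-YF and FLAG it was 6 and 6 at day 5 (43.3% and 44.9% of all genes), 8 with HDAC3-YF and 7 with FLAG at day 9 (44.7% and 45.8%) and 10 with HDAC3-YF and 8 with FLAG at day 13 (46.6% and 45.1%). The 10 include Thra, for which, with no listed start, either annotated end counted; its interval was at the end where Nr1d1 overlaps it, and without Thra the day 13 HDAC3-YF count was 9. Without Thra and Rara, which had the highest totals, genes with more intervals with HDAC3-YF numbered 2, 4 and 4 at days 5, 9 and 13 and genes with fewer 1, 1 and 2, of 8.

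ESCs held fewer H3K27ac intervals at these genes than MEFs, 30 against 48. Rara, Rarg, Rxra, Thra, Ppard and Pparg had fewer in ESCs, Nr1h2 and Nr1h3 had 1 more each, and Rarb and Thrb had equal counts. Over all genes 22.7% had fewer in ESCs than in MEFs and 27.8% had more. At least 2 fewer in ESCs were seen at 5 of 10, against 10.3% of all genes, and at least 2 more at 0 of 10, against 12.8%. At least 5 fewer were seen at Rxra (3 in ESCs, 8 in MEFs) and Ppard (3 in ESCs, 8 in MEFs), against 1.86% of all genes, and at least 5 more at 0 of 10, against 1.73%. These shares are not matched for the number of intervals. The median over all genes was 1 in ESCs and 1 in MEFs, against 3 and 3.5 for the receptor genes. Of the 67 elements, 23 were in both cell types, 7 in ESCs and not MEFs, and 25 in MEFs and not ESCs; 13 of the last were in no OSKM list. The additional ESC interval of Nr1h2 lay 3462 bp upstream of its start, and that of Nr1h3 lay 26151 bp from its nearest listed start.

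Counted against MEFs, the OSKM lists held fewer intervals at most receptor genes. In the HDAC3-YF series the 10 genes held 48 intervals in MEFs, 34 at day 5, 31 at day 9, then 32 at day 13, and in the FLAG series 48, 27, 26 and 23. Fewer than in MEFs on all 3 days were 4 of 10 genes with HDAC3-YF and 7 of 10 with FLAG, against 33.9% and 34.9% of all genes with a MEF interval. From the higher-scoring 50% of each list they were 7 with HDAC3-YF and 7 with FLAG, of 9 genes, against 35.1% and 34.8%. The OSKM lists are shorter than the MEF list, and per 10000 intervals of a list the receptor windows held 18.1 in MEFs, then 20.1 with HDAC3-YF and 17.3 with FLAG at day 5, 20.3 with HDAC3-YF and 15.8 with FLAG at day 9, and 22.5 with HDAC3-YF and 14.9 with FLAG at day 13; ESCs had 11.8. With 14251 intervals from each list, 1 gene with HDAC3-YF and 3 with FLAG were below MEFs on all 3 days. Of all genes with a MEF interval among these, 11.3% and 11.5% were, so this comparison depends on list length and score.

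A co-repressor site is an NCoR or SMRT interval, merged where they overlap. At day 9 the windows held 4 sites at Thra, Nr1h2 and Nr1h3, 3 of 10 genes, and in ESCs 2 sites, both at Rara, 1 of 10 genes. Over all genes 37.2% had a day 9 site in their window, near the share of the receptor genes, and 29.7% an ESC site. No receptor gene had a site within 1 kb of a listed start, or of either annotated end for Thra. Over all genes, read in the same way, 22.7% had one at day 9 and 15.0% in ESCs.

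Of the 4 day 9 sites, 3 lay closer to a listed start of another gene than to a listed start of the receptor gene (for Thra, to either annotated end). The site at chr2:91202544-91202743, in both the NCoR and the SMRT list, lay 268 bp from the start of Acp2. It was 7527 bp from the nearest listed start of Nr1h3, inside the annotated body of that gene. It was also 185 bp from the upper annotated end of Nr1h3, which is the 5′ end of this minus-strand gene and not a listed start. The site at chr7:44548483-44548682, in the SMRT list, lay 232 bp from the start of Pold1 and 5382 bp from that of Nr1h2. The site at chr11:98774189-98774388, in both lists, lay 1088 bp from the start of Nr1d1. The fourth, chr11:98741800-98741999, also in both lists, was 1123 bp inside the lower annotated end of Thra, next to the element present in all 8 H3K27ac lists. Within 2.5 kb of a start this site counts as 1 receptor gene with a day 9 site.

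The day 9 sites and day 9 H3K27ac overlapped in part. The Thra site overlapped the day 9 HDAC3-YF interval by 96 bp and lay 233 bp between centres from the day 9 FLAG interval, with 0 bp of overlap. The Pold1 site overlapped both, by 106 bp with HDAC3-YF and 172 bp with FLAG. The Acp2 site overlapped the HDAC3-YF interval by 89 bp and lay 220 bp from the FLAG interval with no overlap. The Nr1d1 site overlapped neither. H3K27ac intervals begin on a 50 bp grid in these lists, so gaps of this size are near the resolution of the lists. Overlap with H3K27ac was counted for sites at the receptor genes only, so no share over all day 9 or ESC sites stands beside it.

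The 2 ESC sites at Rara lay outside its body. The site at chr11:98982235-98982434, in both lists, was 17462 bp from the nearest listed Rara start and 208 bp between centres from an ESC H3K27ac interval that it did not overlap. The site at chr11:98918391-98918590, in the SMRT list, was within the neighbouring gene Cdc6 and 10148 bp from the nearest ESC H3K27ac interval. For the other genes the nearest sites to the gene body were distant: at Rarb 65.5 kb at day 9 and 2080 kb in ESCs, at Thrb 118 kb at day 9 and 1380 kb in ESCs, at Pparg 112 kb in both, at Rxra 161 kb at day 9 and 25.7 kb in ESCs, at Ppard 27.1 kb at day 9 and 55.7 kb in ESCs and at Rarg 21.9 kb at day 9 and 22.0 kb in ESCs.

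Other genes of these pathways were read from 6 lists, with the shares of all genes given above as their background. Of 10 partner and other receptors, 1, 1 and 2 had more intervals with HDAC3-YF at days 5, 9 and 13 and 1, 1 and 1 fewer. In this list Nr1h4, the bile acid receptor gene, which also stands in the list of LXR targets, had 5 intervals with HDAC3-YF and 2 with FLAG at day 5. Nr2f2, which encodes the orphan receptor COUP-TFII, had 2 intervals in ESCs and 7 in MEFs, and Vdr, the vitamin D receptor gene, 0 in ESCs and 3 in MEFs. A day 9 co-repressor site lay within 1 kb of a start at Rxrb, Nr2f1, Nr2c1 and Nr2c2, 4 of 10, and an ESC site at Nr2c1 and Nr2c2. Rxrb, a retinoid X receptor gene like Rxra, thus had a day 9 site where Rxra had none within 161 kb of its body.

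Of 10 co-regulator genes, 6, 2 and 2 had more with HDAC3-YF and 1, 4 and 3 fewer. Ncor1, which encodes NCoR, had 12 in ESCs and 2 in MEFs, and Tbl1xr1, a subunit of the same complex, 12 in ESCs and 1 in MEFs. Hdac3, the deacetylase gene, and Ncoa3, a co-activator gene, had a day 9 site within 1 kb of a start. In ESCs such a site was present at Tbl1xr1, Ncoa1, Ncoa2, Ncoa3 and Med1, 5 of 10, against 15.0% of all genes.

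The lists of ligand supply and of receptor targets held counts in both directions. Of 13 genes of retinoid supply and clearance, 4, 1 and 1 had more with HDAC3-YF at days 5, 9 and 13 and 1, 4 and 4 fewer. Among them Crabp2, a cellular retinoic acid-binding protein gene, had 3 intervals with HDAC3-YF and 5 with FLAG at day 9. Of 8 thyroid hormone handling genes, 1, 0 and 0 had more and 2, 1 and 3 fewer. Of 10 PPAR targets 2, 1 and 2 had more and 4, 2 and 4 fewer, and Ucp3, a mitochondrial carrier gene, had 1 interval with HDAC3-YF and 4 with FLAG at day 9 and 0 with HDAC3-YF and 4 with FLAG at day 13. Of 10 LXR targets 4, 1 and 4 had more and 1, 5 and 3 fewer, and Abca1, the cholesterol efflux transporter gene, had 4 with HDAC3-YF and 3 with FLAG at day 5, 3 with HDAC3-YF and 6 with FLAG at day 9, and 2 with HDAC3-YF and 4 with FLAG at day 13.

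In ESCs against MEFs, 2 genes of retinoid supply and clearance had more and 7 fewer, 4 thyroid hormone handling genes more and 2 fewer, 4 PPAR targets more and 3 fewer, and 4 LXR targets more and 2 fewer. Apoe, an LXR target that encodes a lipid carrier, had 7 intervals in ESCs and 1 in MEFs, and Klf9, a thyroid hormone target, 9 in ESCs and 3 in MEFs. Day 9 sites within 1 kb of a start were present at Rdh10, Slc16a10, Klf9, Srebf1, Mylip and Scd1, and an ESC site at Rbp4.

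For the 6 receptor genes with at least 20 intervals over the 8 lists, the protein-coding genes most like them were sought as those with the smallest sum of absolute differences over the 8 window counts. For Nr1h3 these were Zfp105 and Zfp660 with a sum of 0 and Adck2 with 1. For Rarg they were Arl2, Gm48552 and Nectin1 with 2 each, and for Rxra they were Adk, Dlg2 and Ino80c with 4 each. Among the closest genes to Ppard were 1700003E16Rik, Dnm1 and Man2a2 with 7 each. For Rara they were Rreb1 and Slc12a9 with 7 and Mdc1 with 8, and for Thra Arid1a and Slc25a22 with 8 and Coro7 with 9. For each receptor gene 3 are named, with ties taken by symbol. Genes at the largest sum named or below numbered 15 for Nr1h3, 5 for Rarg, 6 for Rxra, 5 for Ppard, 4 for Rara and 12 for Thra.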

How the data were processed

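The data were peak lists of 13 ChIP-seq libraries grouped by their titles, 1 per group, of which 12 had a list. The submitters' processing notes name Bowtie2 2.2.0, MACS 1.4 and mm10, without settings. Each deposited list gives 200 bp intervals with a score by the authors, whose scale is not stated; it was used to order the H3K27ac intervals of a list. The NCoR and SMRT scores, identical at all 2743 shared ESC and 4003 shared day 9 intervals, come from 1 joint list and were not used as heights.

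Gene positions, starts and promoter sequences were RefSeq's (GRCm38.p6). Intervals were counted with Python 3.11.15, numpy 2.4.6 and pandas 2.3.3, after a check on simulated intervals. An interval was in a window by 1 bp of overlap and at a start within 1 kb of its centre. All 10 receptor genes were named; of each pathway list up to 3 genes with the largest summed HDAC3-YF difference, up to 3 with the largest ESC difference, and those with a site at a start could be named. Some results of these lists are not reported here. Members and lists were chosen with earlier results of these data known. Alternatives were 5 kb and no flanks, merging within 1 kb, higher-scoring intervals, nearest genes, other overlaps and 2.5 kb around starts.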

Additional observations from a re-analysis of the deposited data

Results flagged for a closer look

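At Rxra the difference of HDAC3-YF minus FLAG was 1 interval at day 5 (4 intervals with HDAC3-YF and 3 with FLAG), 1 at day 9 (4 with HDAC3-YF and 3 with FLAG) and -1 at day 13 (3 with HDAC3-YF and 4 with FLAG), so the sign at day 13 was opposite to that of the earlier days. At Pparg it was -1 at day 9 (0 with HDAC3-YF and 1 with FLAG) and 1 at day 13 (2 with HDAC3-YF and 1 with FLAG). These were noted because single libraries of different days moved in opposite directions; the difference between days was not tested. The day 9 Pparg interval of FLAG and 1 of the 2 day 13 HDAC3-YF intervals are the same element past the end of the gene.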

How the results depend on the processing

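No paired analysis was possible because each group is 1 library with no replicate number to share; a fit with the 3 days as pairs, which are conditions and not replicates, was not made. The counts of receptor genes with more or fewer intervals moved most with the higher-scoring 50% of each list: more with HDAC3-YF numbered 1, 3 and 3 genes at days 5, 9 and 13, fewer was 2 and 3 at days 5 and 9, and 7 genes with HDAC3-YF were below MEFs on all 3 days. Of 240 values for single genes 142 stayed, 93 moved without turning and 5 turned, all with the higher-scoring 50%: Rara (-1) and Rarg (-1) at day 9, Rxra (-1) and Thra (-1) at day 5, and Thra (-2) at day 13. With a 5 kb flank genes with fewer with HDAC3-YF numbered 0 at day 9 and 1 at day 13, 1 gene had more in ESCs than MEFs and 0 an ESC site. With the gene body alone 2 genes had fewer at day 5 and 0 at day 9, 0 had more in ESCs and 0 an ESC site. With an equal number of intervals 0 genes had fewer at day 9, and 1 gene with HDAC3-YF and 3 with FLAG were below MEFs on all 3 days. Keeping intervals nearest to the gene left 1 gene with more in ESCs and 0 with an ESC site. By position, an alternative added after seeing the data, 2, 4 and 5 genes had an interval with FLAG alone. With centres within 1 kb 1 ESC site met ESC H3K27ac, against 0 by overlap. With 50% overlap 1 day 9 site met day 9 H3K27ac, against 3. The share over all sites was not counted for either. Within 2.5 kb 1 gene had a day 9 site at a start. The cause of these shifts was not tested. Of 95 counts under alternatives 70 stayed within 1.5 times, among them all under merging within 1 kb, linking within 2 kb, both-list sites and leaving out Thra and Rara; the last and the 2 kb linking were also chosen after seeing the data. Unknown depth and 1 library a group limit every difference.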
